A study of Mus musculus with 4 samples.

Results

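The comparison described here set the library of a responder against the library of a non-responder, both taken after PD-1 blockade. It used 2 of the 4 libraries of the study, chosen by their labels and not by any measured value. Each library was made from the RNA of patients' blood CD8+ T cells that a cell sorter had gated for high CD11a. Titles of both libraries from before therapy also carry a PD-1-positive tag, and the labels do not say whether these were gated on PD-1 as well, so the gate may differ between the times. The patients had received an antibody against PD-1 every 3 weeks, with 4 doses making up a cycle. The other 2 libraries, which came from before therapy with 1 responder and 1 non-responder, were used only side by side with the pair from after therapy. Each group was 1 library, and the labels do not say whether the libraries from before and after therapy came from the same patients. A treatment label places all samples after a cycle of therapy, whereas the group label places 2 of them before it, and the group label was followed. The organism label names mouse, but the files hold human genes on build hg38, so the data were read as human.

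CD8+ T cells kill infected and malignant cells with perforin and granzymes, and a high level of CD11a, the ITGAL chain of the integrin LFA-1, marks those that have met antigen. PD-1 is an inhibitory receptor of such cells that recruits phosphatases to damp signals from the T cell receptor and CD28, and antibodies against it release that brake. Cells that circulate in blood carry traces of their recent state: effector and homing genes, receptors shared with NK cells, genes of division, and short-lived transcripts that respond to stimulation within minutes.

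The responder library from after therapy held 129773591 counts over 29311 genes, and the non-responder library held 115446087 counts over 29459 genes. The libraries from before therapy were shallower, at 78912300 and 65500644 counts. Levels are given as CPM, the counts of a gene scaled to library size by TMM, and differences as the log2 ratio of responder over non-responder, in that direction throughout. A single library on each side leaves no replicate check, so no difference below has a p-value or an error that covers differences between patients. The 95% intervals cover counting error alone, and with 1 ng of RNA amplified without molecular identifiers a count of 0 can also be a transcript that was never captured.

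Among 16061 genes with a mean of at least 1 CPM over both libraries from after therapy, 1113 had a responder level at least 2-fold higher, which is 6.93% of those compared, and 1891 were at least 2-fold lower, which is 11.8%. The lower side was longer still at larger ratios. At 4-fold there were 200 genes higher and 762 lower, and at 8-fold 85 higher and 317 lower. The median log2 ratio over all 16061 genes was 0.031. Genes of low level made up much of these counts: 36.0% of genes between 1 and 5 CPM were at least 2-fold apart, 20.5% of those between 5 and 20 CPM, 8.76% between 20 and 100 CPM, and 6.86% above 100 CPM. Counting error was small by comparison, since the interval left out 0 for 13948 of the 16061 genes.

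The split into higher and lower genes depended on the scale. The 7 genes of the CD3, CD8 and CD2 chains were higher in the responder by 0.565 on average (log2), or 1.48-fold. When these genes were set equal in both libraries, the median over all genes moved by -0.573, to -0.542. Of 16164 genes past the filter on that scale, 341 were at least 2-fold higher and 3946 lower. Counts and medians of gene groups on that scale are to be set beside these values. The share of higher genes among those apart then went from 37.1% to 7.95%. A gene less than 1.48-fold higher in the responder under TMM was lower on that T cell scale, and medians of gene groups are given on both scales where their direction differs. In bulk RNA, more cells of a type and more RNA per cell cannot be told apart.

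**Figure D1:**
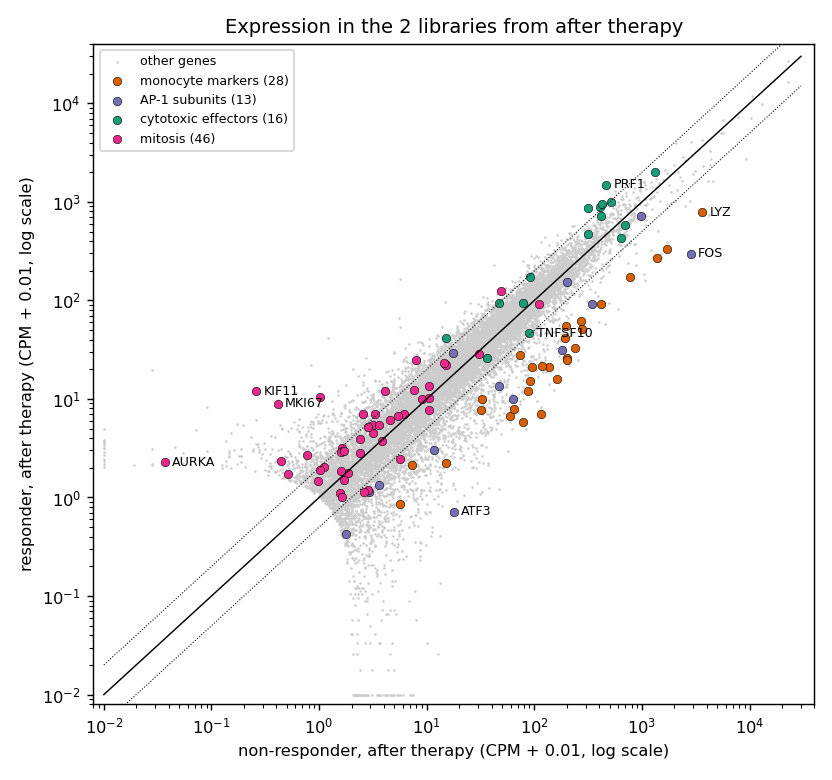
Level of each gene in the non-responder library (horizontal) and the responder library (vertical) from after therapy, in CPM plus 0.01 on log axes, for the 16061 genes compared. The solid line marks equal levels and the dotted lines 2-fold. All 28 monocyte markers lie below the lower dotted line, while PRF1 lies above the upper one at 1488 against 465 CPM.

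Markers of the sort were present at high level in both libraries. CD8A (ENSG00000153563, chromosome 2: 86784610 to 86808396), the alpha chain of CD8, was measured at 1561 CPM in the responder and at 946 CPM in the non-responder. ITGAL, the CD11a chain, stood at 740 and 516 CPM, and its partner chain ITGB2 at 1475 and 1077 CPM. All 12 sort markers were higher in the responder, 0 of them by 2-fold, with ratios from 0.12 for CD6 to 0.93 for the adhesion receptor CD2. Their median was 0.49, and -0.072 on the T cell scale. Rearranged receptor transcripts differed between chains. Reads on the variable segments of the receptor beta chain summed to 1229 CPM in the responder against 924.7 in the non-responder, less than the 1.48-fold that the T cell scale takes off. Those of the alpha chain summed to 579.3 and 243.6 CPM, and those of the delta chain to 3.375 and 5.396 CPM. Before therapy the 12 sort markers had a median of 0.14, and 7 of them were higher in the responder.

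Transcripts of other blood cells were far more abundant in the non-responder. All 28 monocyte markers passed the filter, and all 28 were at least 2-fold lower in the responder, with a median of -2.43. Summed over the list, the responder held 2135 CPM and the non-responder 10650 CPM. Ratios ran from -4.01 for the lectin CLEC12A, at 7.09 against 114 CPM, to -1.40 for the Fc receptor FCGR2A, at 27.6 against 73.0 CPM. LYZ, the lysozyme gene, stood at 791 against 3631 CPM, CD14, the co-receptor for lipopolysaccharide, at 54.4 against 196 CPM, and CSF1R, the receptor for monocyte growth factors, at 21.2 against 137 CPM. No monocyte marker was at 0 in either library. The libraries from before therapy held much less of this signal, with sums of 262.3 CPM (responder) and 319.4 CPM (non-responder).

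Dendritic cell and platelet transcripts showed the same order. Of 14 dendritic cell markers, 9 passed the filter and all 9 were at least 2-fold lower in the responder, with sums over the list of 28.35 against 202.5 CPM. The filter takes the mean of both libraries, so a marker can pass through the non-responder alone. Without the filter, 13 of the 14 were at least 2-fold lower and 1 was at least 2-fold higher. CD1C, which presents lipid antigens, stood at 0.392 against 13.3 CPM, FCER1A, a chain of the IgE receptor, at 2.92 against 29.2 CPM, and the cytokine receptor FLT3 at 0.494 against 11.1 CPM. CLEC4C, the defining marker of plasmacytoid dendritic cells, stood at 0.983 CPM in the non-responder and had no count in the responder, at least 41.7-fold lower in the latter against a floor of 3 counts. Of 26 platelet markers, 22 passed and all 22 were at least 2-fold lower, with sums of 72.03 against 502.3 CPM. PPBP, the platelet basic protein, stood at 4.91 against 61.4 CPM, TUBB1, the tubulin of platelets, at 5.82 against 59.4 CPM, and the coagulation factor chain F13A1 at 21.3 against 126 CPM.

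Other marker lists were shorter or mixed. Among 15 neutrophil markers 9 passed, with 6 lower and 3 higher by 2-fold. CSF3R, the receptor for granulocyte colony-stimulating factor, stood at 26.3 against 193 CPM, whereas the interleukin-8 receptor CXCR1, which cytotoxic lymphocytes also carry, stood at 5.04 against 0.867 CPM. FCGR3B stood at 31.9 against 12.8 CPM, but it is nearly identical to FCGR3A, so its reads are uncertain. The granule genes MMP8 and CEACAM8 had no count in either library, which allows up to 0.02355 CPM (responder) and 0.0268 CPM (non-responder). B cell markers summed to 115.8 against 100.9 CPM, most of each sum from MS4A1 (CD20) at 76.8 against 54.9 CPM. Of the 9 B cell markers past the filter, 7 were lower in the responder, 4 of them by 2-fold. Only 2 were higher, 1 of them by 2-fold, and the median was -0.65. Of 8 CD4 T cell markers, 3 were at least 2-fold lower and 1 higher, with a median of -0.70. CD4 had the lowest ratio of that list and was 8.24-fold lower, at 11.5 against 94.7 CPM. The regulatory T cell factor FOXP3 stood at 1.61 against 2.32 CPM. Red cell, mast cell and epithelial markers each summed to at most 5.906 CPM, apart from mast cell and basophil genes in the non-responder at 10.17 CPM. NK cell markers went the other way and summed to 738.0 against 444.1 CPM, with KLRF1, an activating receptor, at 207 against 102 CPM and NCAM1 (CD56) at 10.1 against 8.93 CPM. The part of these cells' RNA in the gene groups below was not tested. The monocyte sums are repeated for some, but not all, of the groups that hold genes monocytes also express.

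Genes picked only for the size of their ratio included, on the lower side, several known from myeloid cells, and also FOS, DUSP1, NEAT1 and others described further on. SERPINA1, the protease inhibitor alpha-1 antitrypsin, was at 57.5 CPM in responder cells and 454 CPM in non-responder cells. IFI30, a thiol reductase of antigen-processing compartments, stood at 160 against 1076 CPM, and TYMP, the thymidine phosphorylase, at 60.0 against 394 CPM. Among genes of lower level, CTSL, a lysosomal protease, stood at 0.808 against 25.4 CPM, the sorting receptor SORT1 at 1.08 against 31.4 CPM, and SIGLEC1, a lectin of macrophages, at 1.04 against 22 CPM. P2RX1, an ATP-gated channel of platelets and myeloid cells, stood at 1.21 against 46.8 CPM. MYOF, a membrane repair protein, stood at 0.126 against 13.3 CPM. KIAA0226L stood at 10.1 CPM in the non-responder and rested on 3 counts in the responder, a log2 ratio of -8.51 with an interval from -11.02 to -7.19. H1F0, a linker histone of cells at rest, stood at 1.23 against 37.7 CPM, a 30.5-fold difference.

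On the higher side, KIF11 (chromosome 10: 92593286 to 92655395), a spindle motor, reached 12 CPM in the responder while the non-responder had 0.250 CPM, 47.1-fold higher (log2 ratio 5.56, interval 5.04 to 6.18). ARHGAP11A, a regulator of cytokinesis, stood at 10.4 against 1.01 CPM. MDGA1, a membrane glycoprotein, stood at 11.4 against 0.384 CPM, the phosphatase PHLPP2 at 13.6 against 0.992 CPM, and NDFIP2, an adaptor of ubiquitin ligases, at 13.9 against 1.78 CPM. EPDR1 stood at 16.9 against 2.30 CPM, and PDGFB, a growth factor for stromal cells, at 14.9 against 2.56 CPM. The zinc finger genes ZNF813, ZNF879 and ZNF680 were 7.35-fold, 6.98-fold and 5.45-fold higher. MTRNR2L8, at 41.6 against 1.21 CPM, is a nuclear copy of mitochondrial sequence, so its reads are uncertain. Among abundant genes with the largest ratios, SLAMF6, a signalling receptor of lymphocytes, stood at 435 against 125 CPM, IL2RB, the receptor chain for interleukins 2 and 15, at 563 against 231 CPM, and GIMAP4, a GTPase of lymphocytes, at 414 against 177 CPM.

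**Figure D2:**
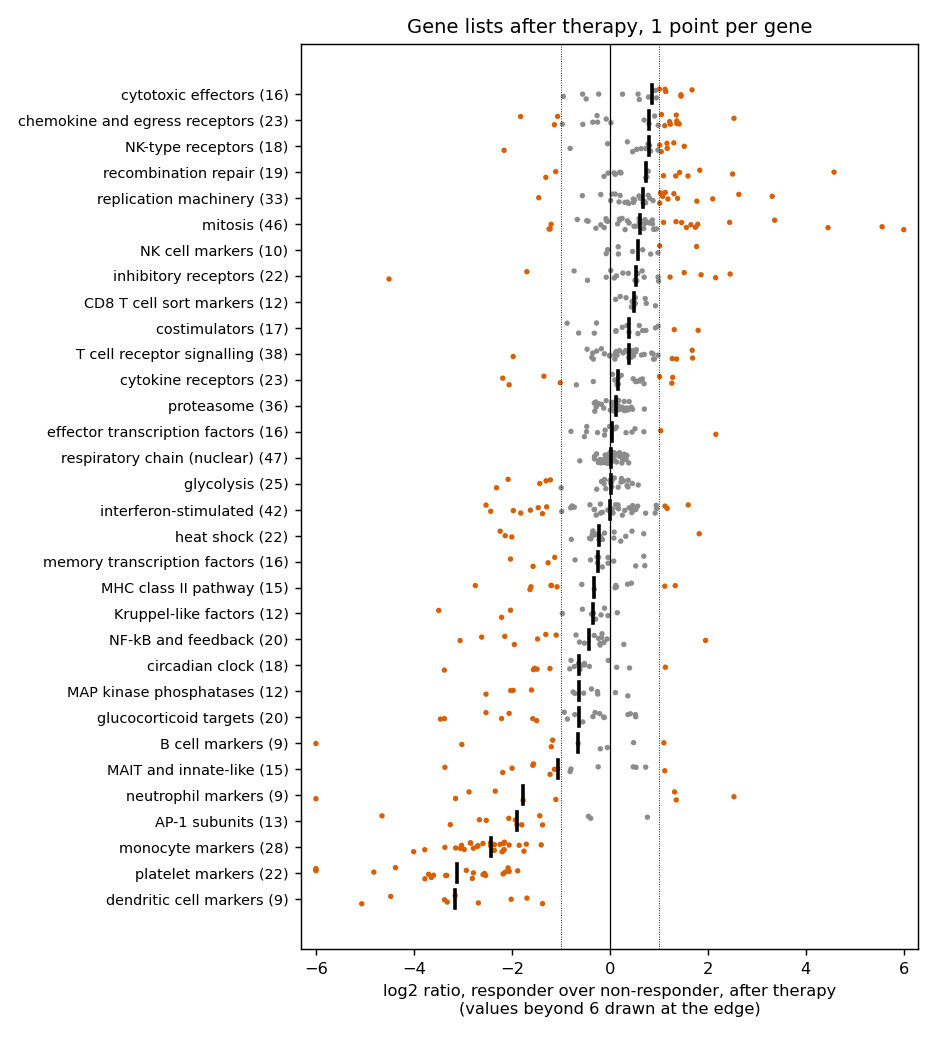
Log2 ratio of responder over non-responder after therapy for the members of 32 gene lists, 1 point per gene past the filter, with the number of genes in brackets. Thick bars mark list medians, dotted lines 2-fold, and orange points genes past 2-fold. Medians run from 0.86 for cytotoxic effectors to -3.16 for dendritic cell markers, and on the T cell scale every point lies lower by 0.565, which puts the medians from inhibitory receptors down to the interferon list below 0.

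Most cytotoxic effector genes were higher in the responder under TMM. Of 16 genes, all past the filter, 6 were at least 2-fold higher and 0 lower, with a median of 0.86. With CD3, CD8 and CD2 genes set equal, the median was 0.29, with 1 gene at least 2-fold higher and 3 lower. PRF1, perforin, the pore-forming protein, stood at 1488 against 465 CPM and was 3.2-fold higher. Granzymes, the proteases delivered through that pore, were higher under TMM: GZMB stood at 866 against 316 CPM, GZMH at 941 against 427 CPM, GZMA at 897 against 410 CPM and GZMM at 94.2 against 46.7 CPM, while GZMK, typical of earlier memory cells, was 1.49-fold higher at 471 against 316 CPM. GNLY, granulysin, which acts on microbial membranes, stood at 2003 against 1321 CPM. FASLG, the ligand of the death receptor FAS, stood at 41.6 against 15.2 CPM. TNFSF10, the death ligand TRAIL, went the other way at 46.5 against 89.8 CPM, and so did LAMP1, a membrane protein of lytic granules, at 26.0 against 36.3 CPM. Before therapy the list had a median of 0.21, and GNLY stood at 2595 against 4725 CPM.

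Of 18 receptors shared with NK cells that passed the filter, 6 were at least 2-fold higher and 1 lower under TMM, with a median of 0.80. On the T cell scale the median was 0.23, with 0 at least 2-fold higher and 2 lower. KLRG1, a lectin receptor of late effector cells, stood at 462 against 161 CPM, and GPR56, an adhesion receptor of cytotoxic cells, at 367 against 163 CPM. FCRL3, a receptor related to Fc receptors, stood at 296 against 132 CPM, and CD300A, an inhibitory receptor, at 184 against 88.8 CPM. KLRK1, the activating receptor NKG2D, stood at 1143 against 652 CPM, and KLRD1, the CD94 chain, at 574 against 369 CPM. KLRC2 was 2.47-fold higher, but it shares sequence with KLRC1 and KLRC3. The 1 gene lower by 2-fold was TYROBP, a signalling adaptor that monocytes also express, at 61.1 against 273 CPM. KLRB1, the CD161 lectin, stood at 57.4 against 101 CPM.

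Of 23 homing and egress receptors past the filter, 9 were at least 2-fold higher and 3 lower under TMM, with a median of 0.80. On the T cell scale the median was 0.23, with 1 at least 2-fold higher and 5 lower. CX3CR1, the fractalkine receptor of patrolling effector cells, stood at 379 against 162 CPM, and CXCR6, which binds CXCL16, at 48.1 against 22.1 CPM. The prostaglandin receptors PTGER2 and PTGDR stood at 366 against 137 and 117 against 45.1 CPM. The sphingosine receptors S1PR1, S1PR4 and S1PR5, which guide exit from tissue, were 1.74-fold, 2.08-fold and 1.89-fold higher. Lower in the responder stood CCR1, a receptor that monocytes also carry, at 7.75 against 27.4 CPM, CCR4 at 7.50 against 16.4 CPM and CCR6 at 6.55 against 13.7 CPM. The lymph node homing gene CCR7 was 1.2-fold lower, at 50.8 against 60.9 CPM.

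Integrin chains had a median of 0.42, and -0.146 on the T cell scale, with 1 of 18 at least 2-fold higher and 1 lower. ITGA6, a laminin receptor chain, stood at 128 against 61.2 CPM, ITGA4 at 678 against 400 CPM and ITGB1 at 853 against 575 CPM. ITGAX, the CD11c chain of dendritic cells and monocytes, stood at 7.53 against 35 CPM, in the library where monocyte markers summed to 10650 CPM against 2135 CPM.

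Inhibitory receptors were mostly higher in the responder under TMM. Of 22 genes, all past the filter, 17 were higher, 5 of them by 2-fold, and 2 were at least 2-fold lower, with a median of 0.53. On the T cell scale the median was -0.034, with 3 at least 2-fold higher and 4 lower. TIGIT (chromosome 3: 114276913 to 114310288), which competes with CD226 for its ligands, had the largest ratio, at 230 against 41.9 CPM (5.49-fold, log2 ratio 2.46, interval 2.41 to 2.50). CD274, the ligand PD-L1, stood at 19.3 against 4.32 CPM. PDCD1, which encodes PD-1, stood at 28.7 against 7.88 CPM. CD244, a receptor of the SLAM family, stood at 200 against 85.1 CPM. CD226, the activating counterpart of TIGIT, was 1.19-fold higher, at 57.2 against 48.0 CPM. Smaller ratios were seen for HAVCR2 (TIM-3) at 33.6 against 21.3 CPM, CTLA4 at 22 against 15.4 CPM and LAG3 at 84.5 against 70.2 CPM. The 2 genes at least 2-fold lower were CEACAM1, an adhesion receptor, at 0.0863 against 2.05 CPM, and LGALS9, which encodes galectin-9, at 7.76 against 25.1 CPM. C10orf54, which encodes VISTA, was lower too, at 307 against 509 CPM, and monocytes express it as well.

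Costimulatory receptors had a median of 0.39, and -0.174 on the T cell scale, with 2 of 17 at least 2-fold higher and 0 lower. The 2 were SLAMF6, given above, and TNFRSF9, the receptor 4-1BB that marks recent activation, at 17.0 against 6.82 CPM. SLAMF7 was 1.98-fold higher at 423 against 214 CPM. CD27 stood at 114 against 74.9 CPM, and CD28, the main costimulator of resting T cells, at 44.6 against 55.6 CPM. Among 12 genes tied to exhaustion, 2 were at least 2-fold higher, TNFRSF9 again and NFATC2, the calcium-regulated factor NFAT1, at 154 against 66.0 CPM. TOX, a factor of the exhausted state, stood at 71.5 against 48.6 CPM. The 1 gene at least 2-fold lower was MYO7A, a myosin, at 1.06 against 3.64 CPM. That list had a median of 0.45, and -0.113 on the T cell scale.

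The signalling chain behind the T cell receptor had a median of 0.38 over 38 genes, and -0.182 on the T cell scale, with 4 genes at least 2-fold higher and 1 lower. Among all genes 6.93% were at least 2-fold higher and 11.8% lower under TMM. On the T cell scale 2 genes of the list were at least 2-fold higher and 2 lower. The 4 higher under TMM were SH2D2A, SH2D1A, UBASH3A and UBASH3B. SH2D2A, an adaptor that binds LCK, stood at 108 against 33.5 CPM, SH2D1A, the adaptor SAP of SLAM receptors, at 275 against 107 CPM, and UBASH3A and UBASH3B, regulators that curb receptor signals, at 68.9 against 28.5 CPM and 15.8 against 4.91 CPM. The kinases LCK and ZAP70 were 1.63-fold and 1.36-fold higher. PTPRC, the phosphatase CD45, stood at 3917 against 2083 CPM. TEC, a kinase that myeloid cells also use, was the gene lower by 2-fold under TMM, at 2.85 against 11.2 CPM.

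Among 16 transcription factors of effector cells 2 were at least 2-fold higher and 0 lower, with a median of 0.050, and -0.515 on the T cell scale. Those 2 were of the Ikaros family: IKZF2 (Helios) stood at 18.8 against 4.20 CPM and IKZF3 (Aiolos) at 177 against 86.2 CPM. TBX21 (T-bet) stood at 249 against 175 CPM and EOMES at 356 against 220 CPM, while RUNX3 stood at 352 and 353 CPM. Among 16 memory factors 0 were at least 2-fold higher and 4 lower, with a median of -0.24. The 4 were KLF7, BCL6, ID3 and MYB, with BCL6, a repressor of effector programmes, at 20.4 against 60.3 CPM. TCF7, which encodes TCF1, and LEF1, both factors of stem-like cells, were close to equal, with 188 against 209 CPM and 107 against 101 CPM.

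Cytokine and chemokine genes did not share a direction. Among 11 cytokines past the filter 1 was at least 2-fold higher and 2 lower, and among 9 chemokines 2 were higher and 2 lower. IFNG stood at 22.5 against 84.3 CPM and TNF at 5.22 against 33.3 CPM, while TNFSF14, the costimulatory ligand LIGHT, stood at 24 against 6.03 CPM. IL16 and IL32 were 1.77-fold and 1.74-fold higher in the responder. XCL1, a chemokine for cross-presenting dendritic cells, stood at 41.9 against 12.3 CPM, though reads of XCL1 and XCL2 can be exchanged. CCL5 stood at 1715 against 1357 CPM. CXCL8 and CXCL16, which myeloid cells also make, stood at 4.08 against 25.1 and 13.3 against 53.2 CPM, beside the monocyte sums of 2135 and 10650 CPM.

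On the receiving side, cytokine receptors had a median of 0.18, and -0.39 on the T cell scale, with 3 of 23 at least 2-fold higher and 4 lower. Receptors for interleukin 2 led: IL2RB stood at 563 against 231 CPM and IL2RA at 7.29 against 3.03 CPM, and TGFBR1, a receptor for TGF-beta, at 144 against 71.4 CPM. The 4 lower by 2-fold were IL23R, IFNGR2, IL6R and IL6ST, with IFNGR2 at 26.8 against 111 CPM. Feedback and kinase genes of cytokine signalling had a median of 0.13, and -0.436 on the T cell scale. PIM2, a survival kinase, stood at 228 against 133 CPM and JAK3 at 198 against 118 CPM, while SOCS1 stood at 23.3 CPM in both libraries.

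Stimulus-response genes were lower in the responder. Resting lymphocytes and monocytes switch many of them on within minutes of handling or activation, but the lists also hold constitutive members such as RELA and CNOT1. Over 7 lists of 86 distinct genes, 82 passed the filter, 1 was at least 2-fold higher and 33 lower, with a median of -0.63, beside 6.93% and 11.8% of all genes. Of 13 AP-1 subunits, the dimers that bind TPA-response elements, 10 were at least 2-fold lower and 0 higher, with a median of -1.90. FOS stood at 298 against 2853 CPM, JUN at 31.5 against 181 CPM, JUND at 92.8 against 346 CPM and FOSB at 13.5 against 47.0 CPM. BATF, an AP-1 factor of effector T cells, was the only subunit higher in the responder, at 29.6 against 17.4 CPM. JUNB and FOSL2, which T cells keep at high level, were 1.35-fold and 1.31-fold lower.

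Feedback regulators that follow these factors were lower as well. The orphan receptors NR4A1, NR4A2 and NR4A3, which the T cell receptor induces, were 7.24-fold, 2.22-fold and 3.38-fold lower. EGR1, a zinc finger factor of the same response, stood at 2.95 against 56.3 CPM, whereas EGR2, which supports tolerance, stood at 1.04 against 1.29 CPM. Among 12 dual-specificity phosphatases, which switch off MAP kinases, 4 were at least 2-fold lower. DUSP1 stood at 727 against 4192 CPM and DUSP6 at 30.4 against 124 CPM, while DUSP2, the lymphocyte member, stood at 1488 against 1773 CPM. Of 20 NF-kB subunits and targets, 7 were at least 2-fold lower and 1 higher. NFKBIA, the inhibitor of NF-kB, stood at 230 against 887 CPM, TNFAIP3, the enzyme A20, at 501 against 1395 CPM, and CD83 at 8.81 against 73.4 CPM, while the subunit RELA stood at 78.3 against 81.4 CPM. TNIP3, a binding partner of A20, was the gene higher by 2-fold, at 53.6 against 13.8 CPM.

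Among genes of RNA decay, 2 of 14 were at least 2-fold lower, a share near the 11.8% of all genes. ZFP36, which binds AU-rich elements, stood at 328 against 1221 CPM and TOB1, an inhibitor of proliferation, at 123 against 367 CPM. Of 12 KLF factors, a zinc finger family with members that keep lymphocytes at rest, 3 were at least 2-fold lower. KLF4 and KLF9 stood at 4.37 against 49.2 CPM and 7.09 against 32.9 CPM, whereas KLF2, which governs trafficking of resting T cells, stood at 235 against 242 CPM. Monocytes express FOS, DUSP1, KLF4, CD83 and NFKBIA too, and the monocyte list summed to 2135 against 10650 CPM. In the pair from before therapy these sums were 262.3 and 319.4 CPM. There, 3 of 79 stimulus-response genes were at least 2-fold higher and 42 lower, with a median of -1.06. Of all 14956 genes past the filter at both times, 1896 were at least 2-fold higher and 1508 lower in that pair. The part of monocyte RNA in these values was not tested in either pair.

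Clock genes and targets of glucocorticoids were lower in part. Of 18 clock genes 5 were at least 2-fold lower and 1 higher, with a median of -0.62. PER1 stood at 24.6 against 256 CPM, PER2 at 2.57 against 7.2 CPM and NR1D1, a repressor of the clock, at 3.35 against 9.73 CPM, while ARNTL, the core activator BMAL1, stood at 84.6 against 76.8 CPM. Of 20 glucocorticoid targets 7 were at least 2-fold lower and 0 higher, with a median of -0.63. SGK1, a kinase, stood at 9.52 against 105 CPM and TSC22D3, which encodes GILZ, at 1637 against 4609 CPM. FKBP5, a chaperone that glucocorticoids induce strongly, was 1.43-fold higher under TMM and lower on the T cell scale, at 218 against 152 CPM, and the receptor gene NR3C1 stood at 172 against 188 CPM. The list holds CD163, a scavenger receptor of monocytes, at 7.63 against 31.7 CPM. PER1, DUSP1 and KLF9 stand on a second list as well.

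Genes of cyclic AMP and G protein signals had a median of 0.063 over 22 genes, and -0.502 on the T cell scale, with 4 at least 2-fold higher and 2 lower. Receptors and enzymes of the cyclic AMP pathway were among the higher genes, with the adenosine receptor ADORA2A at 59.1 against 27.3 CPM, the kinase subunit PRKACB at 299 against 136 CPM and the phosphodiesterase PDE4A at 19.7 against 7.29 CPM. RGS2, which shortens G protein signals, stood at 212 against 464 CPM and GNA15, a G protein of blood cells, at 1.08 against 7.42 CPM.

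Among 22 heat shock genes 3 were at least 2-fold lower and 1 higher, shares near those of all genes, with a median of -0.23. BAG3, a co-chaperone, stood at 3.68 against 17.4 CPM, whereas the constitutive chaperone HSPA8 stood at 1372 against 850 CPM. HSPA1B was 4.01-fold lower and HSPA1A 1.33-fold lower, and reads of these near-identical copies can be exchanged. On the list of the unfolded protein response, PPP1R15A stood at 86.5 against 356 CPM, DDIT3 (CHOP) at 47.7 against 148 CPM, and ATF3 at 0.706 against 17.9 CPM. PDIA4, which folds proteins in the endoplasmic reticulum, stood at 186 against 110 CPM and EDEM1 at 133 against 75.9 CPM, neither past 2-fold. That list had a median of -0.093, with 0 of 19 genes at least 2-fold higher and 4 lower.

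Interferon-stimulated genes lay on both sides of 0, with 21 of 42 on each, a median of 0.004, and -0.561 on the T cell scale. At 2-fold, 3 were higher in the responder, a share near the 6.93% of all genes, and 8 lower. On the higher side stood GBP4 at 284 against 93.5 CPM and GBP1 at 274 against 126 CPM, both guanylate-binding proteins, with the RNA sensor DDX58 at 82.8 against 36.8 CPM. On the lower side stood antiviral genes: IFIT1 at 3.81 against 22 CPM, IFI44L at 13.1 against 70.6 CPM, IFIT3 at 14.3 against 56.0 CPM, IFIT2 at 27.3 against 96.2 CPM and IFI6 at 25.4 against 62.0 CPM. IRF1 stood at 802 against 585 CPM and IRF7 at 29.8 against 50.9 CPM. Before therapy the median was 0.10, and RSAD2, an antiviral enzyme that stood at 10.4 against 27.1 CPM after therapy, had a ratio of 2.77.

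**Figure D3:**
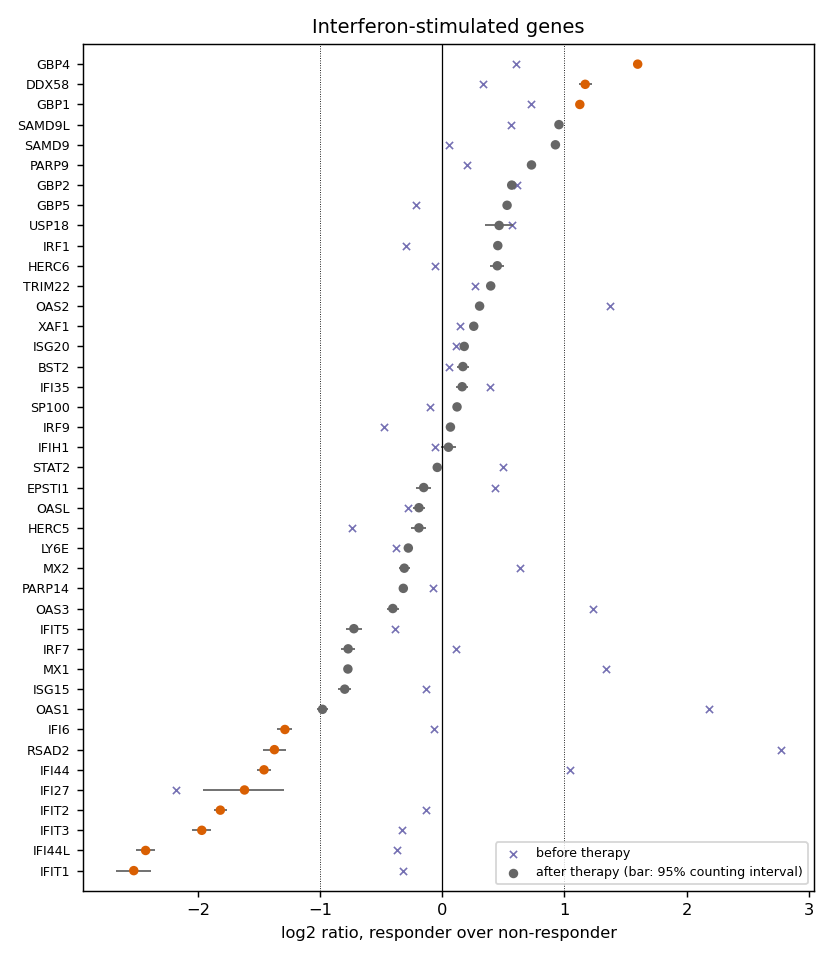
Log2 ratio of responder over non-responder for 41 of the 42 interferon-stimulated genes, ordered by the ratio after therapy (dots, with 95% counting intervals as bars) and with the ratio before therapy as crosses. Orange dots are at least 2-fold apart: GBP4, DDX58 and GBP1 on the right and 8 genes from IFI6 to IFIT1 on the left. On the T cell scale every dot lies lower by 0.565, which leaves GBP4 at least 2-fold higher.

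Of 15 genes of the MHC class II pathway 2 were at least 2-fold higher and 6 lower, with a median of -0.32. Among the lower genes stood HLA-DRA at 240 against 733 CPM, the peptide exchange chain HLA-DMA at 79.9 against 183 CPM and the protease CTSS at 371 against 850 CPM. HLA-DPA1 and HLA-DPB1 were 1.09-fold and 1.1-fold higher, at 452 against 415 CPM and 328 against 299 CPM. HLA-DOA, an inhibitor of peptide exchange, stood at 13.1 against 5.17 CPM and RFX5, which binds class II promoters, at 100.3 against 46.1 CPM. Monocytes and dendritic cells express this pathway at high level, and their lists summed to 2135 against 10650 CPM and 28.35 against 202.5 CPM.

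Cell cycle genes, most of them at low levels, were more often higher than lower in the responder under TMM. Of 167 distinct genes on 5 lists, 134 passed the filter, 37 were at least 2-fold higher and 7 lower, with a median of 0.62. On the T cell scale the medians of the 5 lists lay between -0.086 and 0.168, and the pooled counts were not made on that scale. For DNA replication, 11 of 33 genes were at least 2-fold higher and 1 lower, with a median of 0.68. The T cell scale gave a median of 0.12, with 4 at least 2-fold higher and 2 lower. The helicase subunits MCM3 and MCM4 stood at 121 against 48.9 CPM and 44.5 against 17.1 CPM, PRIM1, a primase, at 34.4 against 15.1 CPM, and CDC45, which completes the helicase, at 3.06 against 0.304 CPM. ORC6, of the origin complex, was the gene at least 2-fold lower, at 2.09 against 5.72 CPM. All 10 nucleotide synthesis genes were higher under TMM, 1 of them by 2-fold, with RRM1, a ribonucleotide reductase chain, at 86.1 against 44.4 CPM, and their median was 0.48, and -0.086 on the T cell scale.

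Of 72 mitotic genes 46 passed the filter, and 12 were at least 2-fold higher and 3 lower under TMM, with a median of 0.61. The T cell scale gave a median of 0.035, with 7 at least 2-fold higher and 7 lower. MKI67, a nuclear protein of dividing cells, stood at 8.91 against 0.402 CPM, RACGAP1, which builds the cleavage furrow, at 25.1 against 7.97 CPM, TOP2A, a topoisomerase, at 7.01 against 2.54 CPM, and STMN1, a tubulin regulator, at 126 against 49.2 CPM. AURKA, a centrosome kinase, stood at 2.28 CPM in the responder and rested on 3 counts in the non-responder, with a log2 ratio of 6.20 and an interval from 4.85 to 8.69. DLGAP5 had no count in the non-responder against 1.62 CPM, at least 60.6-fold higher, although its mean was under the filter. Other members of the same machinery did not follow: TPX2 stood at 7.10 against 6.20 CPM, NUSAP1 at 10.1 against 9.04 CPM, and the spindle motor KIF15 and the kinetochore genes CENPA and CASC5 were at least 2-fold lower, with CENPA at 1.11 against 2.60 CPM.

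Regulators and repair genes completed the group. CCND2, the D-type cyclin induced by interleukin 2, stood at 393 against 115 CPM, and WEE1, a kinase that delays mitosis, at 43.4 against 18.3 CPM. CDKN1A, which encodes the inhibitor p21, was the 1 regulator of 26 at least 2-fold lower under TMM, at 14.2 against 136 CPM. Under TMM 6 were at least 2-fold higher, with CDKN2A at 8.54 against 3.36 CPM, and the median was 0.59. The T cell scale gave a regulator median of 0.021, with 2 at least 2-fold higher and 2 lower. Among 19 repair genes 7 were at least 2-fold higher and 2 lower under TMM, with a median of 0.73. The T cell scale gave 4 higher and 2 lower, with a median of 0.17. UHRF1, which carries DNA methylation through replication, stood at 6.07 against 0.250 CPM, whereas BRCA2, which acts in homologous recombination, stood at 4.58 against 11.3 CPM. The same 5 lists in the pair from before therapy gave 32 genes higher and 13 lower by 2-fold out of 132, with a median of 0.096. Of all 14956 genes past the filter at both times, 1896 were higher and 1508 lower by 2-fold in that pair.

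**Figure D4:**
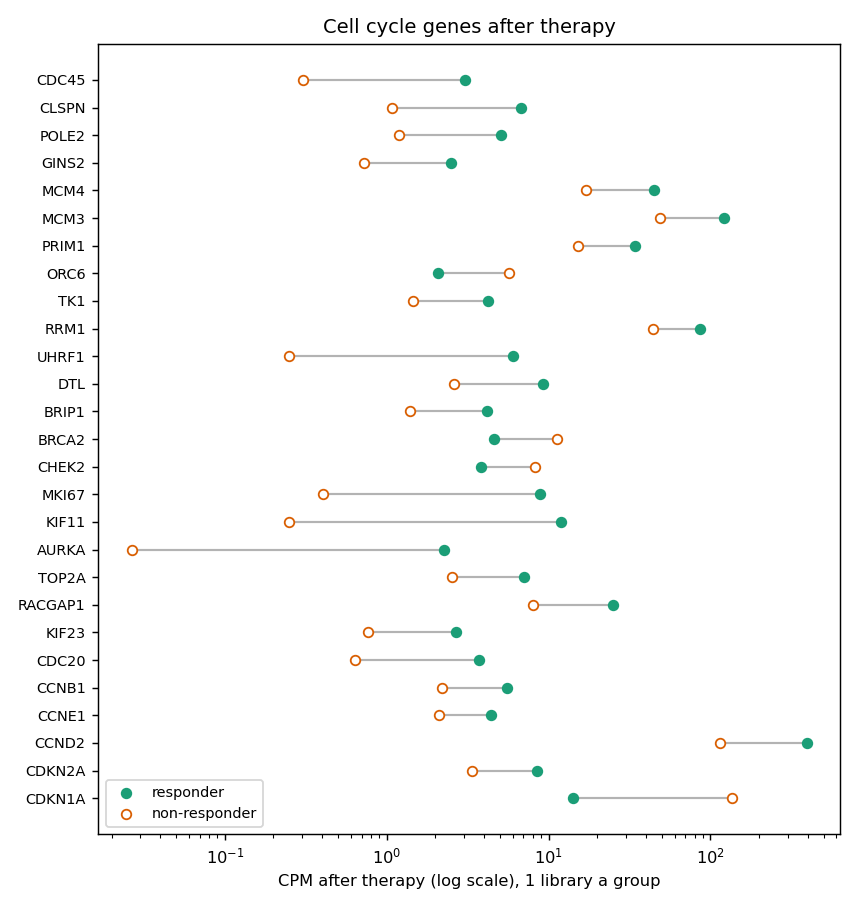
Level of 27 of the 134 cell cycle genes past the filter, picked after their values were seen and mostly for large ratios, in the responder (filled) and non-responder (open) libraries from after therapy, in CPM on a log axis, from replication at the top through repair and mitosis to regulators at the bottom. The responder lies to the right for 23 of the 27, from AURKA at 2.28 CPM to CCND2 at 393 CPM, and to the left for ORC6, BRCA2, CHEK2 and CDKN1A. Lines join both libraries for each gene. The direction of these 27 is no measure of the whole group, where 37 were at least 2-fold higher and 7 lower under TMM. On the T cell scale the medians of the 5 cell cycle lists lay between -0.086 and 0.168.

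Markers of MAIT cells, innate-like T cells that recognise microbial metabolites, were lower in the responder after therapy. All 15 genes passed the filter, 1 was at least 2-fold higher and 8 lower, with a median of -1.07. SLC4A10, a transporter typical of them, stood at 7.53 against 16.5 CPM, LTK at 2.64 against 10.5 CPM and ZBTB16, the factor PLZF, at 6.37 against 18.9 CPM. CXCR6 went the other way. CEBPD stands on this list and on the monocyte list, and had the largest ratio, at 15.8 against 163 CPM. ABCB1, a drug efflux pump of MAIT and effector cells, stood at 100.2 against 69.2 CPM. Among 10 transporters of its class, ABCG2, another efflux pump, had no count in the non-responder against 2.04 CPM, at least 76.1-fold higher, and ABCC3 and ABCA1, a lipid exporter of macrophages, stood at 0.102 against 7.84 CPM and 0.102 against 2.39 CPM.

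Survival genes had a median of -0.052 over 27 genes, with 2 at least 2-fold higher and 4 lower. These shares were near the 6.93% and 11.8% of all genes. The death receptor FAS stood at 136 against 65.8 CPM and its adaptor FADD at 11.3 against 5.04 CPM. PMAIP1, which encodes NOXA, stood at 82.0 against 308 CPM and BCL2A1, a target of NF-kB, at 19.6 against 85.6 CPM. BCL2 stood at 50.9 against 37.7 CPM and BCL2L11, which encodes BIM, at 44.1 against 33.4 CPM.

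Housekeeping pathways lay close to equal. None of 47 nuclear respiratory chain genes and none of 36 proteasome genes was 2-fold apart, with medians of 0.027 and 0.13, and -0.538 and -0.439 on the T cell scale. Glycolysis had a median of 0.017, and -0.548 on the T cell scale, with 0 of 25 genes at least 2-fold higher and 5 lower. Those 5 were HK3, a hexokinase of myeloid cells, at 17.3 against 86.1 CPM, the lactate exporter SLC16A3, and the regulators PFKFB2, PFKFB3 and PFKFB4. GAPDH stood at 1266 against 1373 CPM. Mitochondrially encoded genes took 3.373% of counts in the responder and 4.748% in the non-responder, and 29 of 31 past the filter were lower. Genes of the cytosolic ribosome's proteins had -0.26 as their median, with 97 of 107 lower, 2 of them by 2-fold.

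Gene families of the nucleus differed in opposite directions. Histone genes of the HIST clusters had a median of -1.15 over 29 genes past the filter, with 0 at least 2-fold higher and 19 lower, and summed to 205.2 against 602.4 CPM. The linker histone HIST1H1C stood at 18.7 against 127 CPM and HIST2H2BE at 10 against 79.0 CPM, while HIST1H4C, which rises in S phase, stood at 44.3 against 34.3 CPM. Zinc finger genes on chromosome 19 had a median of 0.34 over 211 genes, and -0.223 on the T cell scale, with 41 at least 2-fold higher and 8 lower under TMM and 17 and 28 on that scale. Those on other chromosomes had a median of 0.27 over 199, and -0.314 on the T cell scale, with 33 higher and 6 lower under TMM and 10 and 28 on that scale. Over all 16164 genes compared on the T cell scale, the median was -0.542, with 341 at least 2-fold higher and 3946 lower. Both zinc finger medians thus lay above that of all genes. Of the long noncoding RNAs, NEAT1, which builds paraspeckles, stood at 82.7 against 597 CPM and MALAT1 at 16310 against 22610 CPM, and 3 of 20 were at least 2-fold lower. The demethylating enzymes TET2 and TET3 stood at 59.8 against 148 CPM and 2.58 against 12.6 CPM, while DNMT1, which maintains methylation, stood at 112 against 104 CPM.

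Set beside the pair from before therapy, which shares no library with it, the pair from after therapy held both repeated and opposite differences. Of 14956 genes past the filter at both times, 993 were at least 2-fold higher and 1328 lower after therapy, and 1896 and 1508 before therapy. Higher at both times were 348 genes, which is 35% of those higher after and 18.4% of those higher before. Lower at both times were 468, which is 35.2% of those lower after and 31.0% of those lower before. Genes that were higher after and lower before numbered 65 of 993, and those lower after and higher before 176 of 1328. Among all 14956 genes, 1508 were lower and 1896 higher before therapy. The first share was below that of all genes and the second near it, so neither count is read as a result. Medians of AP-1 subunits were -1.90 after and -1.37 before, and those of chemokine and egress receptors 0.80 and 1.36. Monocyte markers had medians of -2.43 over 28 genes after therapy and -0.44 before it, over the 22 past the filter at both times. An effect of therapy, a difference between patients, a possible PD-1 gate before therapy and a difference in other cells' RNA cannot be told apart in this design.

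**Figure D5:**
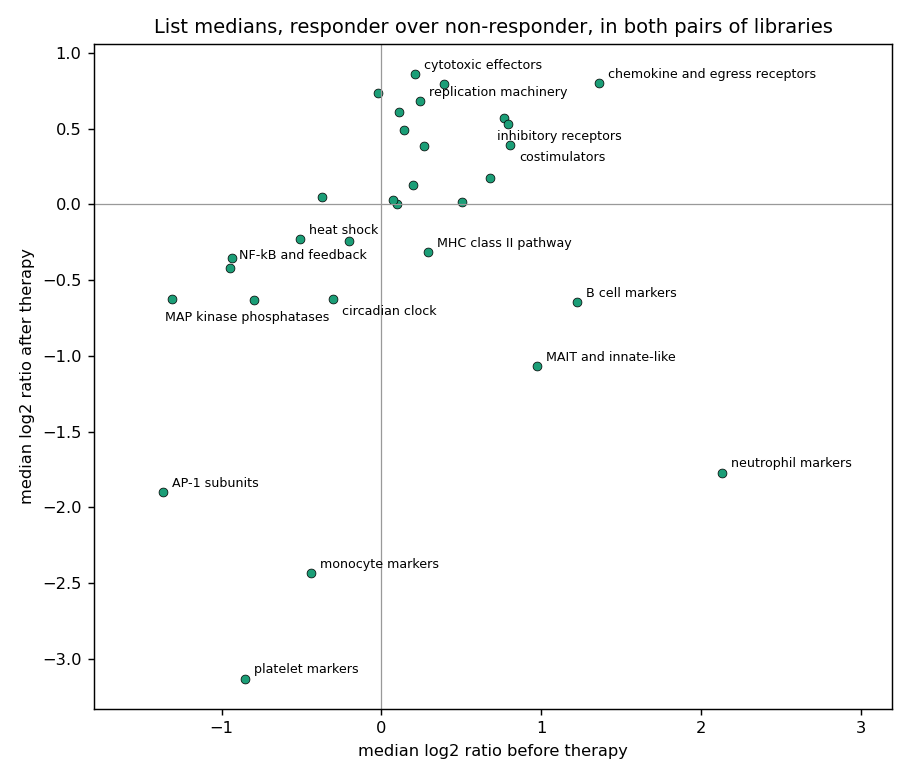
Median log2 ratio of responder over non-responder for gene lists with at least 5 members past the filter at both times, before therapy (horizontal) and after therapy (vertical), 1 point per list. Medians before therapy cover members past the filter at both times, and those after therapy all members past it after therapy. Lists in the lower right corner, neutrophil, B cell, MAIT and MHC class II genes, had medians above 0 before therapy and below 0 after it. On the T cell scale every point lies lower by 0.565 on the vertical axis, with no rescaling of the horizontal one.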

How the data were processed

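The authors deposited raw counts per Ensembl gene, 1 file per library, with gene symbols, positions on hg38 and coding lengths, per the file headers. The tools were bcl2fastq 1.8.4 for base calls and TopHat2 for alignment, per the submitters' processing notes. Paired reads of 101 bases came from 1 ng of RNA made into cDNA with a SMARTer kit, per the labels' protocols. Counting tool, strand setting and annotation: not given in the sources used here. Reads of overlapping, antisense or near-identical genes therefore cannot be told apart.

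Of 64253 genes, 4146 on alternate contigs and 617 informative on sex were left out, which leaves 59490, and 541 receptor segment entries were given as sums only. Counts were scaled with TMM in edgeR 4.0.16 (R 4.3.3) over 24113 genes and all 4 libraries and given as CPM. The log2 ratio used a prior count of 0.5, and its 95% interval is an exact conditional binomial interval, tested on simulated data. Genes with a mean of at least 1 CPM over the libraries compared were counted, at a fold of 2, with no test because each group held 1 library. For lists and families, medians and counts after therapy cover members past the filter after therapy. Those before therapy cover only members past it at both times. Genes without any count on one side got a bound against a floor of 3 counts. Alternatives were DESeq2 1.42.0 size factors, TMM over 2 libraries, library size, equal CD3, CD8 and CD2 genes, other filters, priors and folds, and totals without mitochondrial and ribosomal protein genes. Where a symbol stood on several entries, the one with the lowest Ensembl number was used.

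Lists, 53 with 981 of 986 entries found, members and alternatives were chosen with earlier results of these data known, and those for gene families after seeing the data. In lists of up to 20 genes any member could be named, and in longer ones the 10 with the largest ratio and the cell type markers. Outside the lists the rule took, per direction, the 15 largest ratios at a mean of at least 5 CPM with 100 reads or more on the higher side, and the 10 largest at 200 CPM, without sex-informative genes, receptor segments, class I HLA, KIR and genes with common null alleles. Some genes are not reported here. Named outside it, after their values were seen, were ARNTL, BCL2, BCL2L11, CASC5, CENPA, DLGAP5, F13A1, FCGR2A, GAPDH, GBP1, HAVCR2, the histone genes, IRF1, IRF7, KIF15, LAG3, LCK, NUSAP1, S1PR1, S1PR4, S1PR5, STMN1, TPX2, ZAP70 and the genes under other observations.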

Additional observations from a re-analysis of the deposited data

Results flagged for a closer look

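Some results had opposite directions in the pair from after therapy and the pair from before therapy. Each pair held 1 library a side, so the difference between the pairs was not tested. The median log2 ratio of neutrophil markers was -1.77 over 9 genes after therapy and 2.13 before it, over the 7 past the filter at both times. For B cell markers it was -0.65 after and 1.22 before therapy, and for MAIT and innate-like genes -1.07 and 0.97, each over the same genes at both times. The B cell value turned to 0.48 over the 3 markers with a mean of at least 5 CPM.

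Among MAIT genes, CCR6 had ratios of -1.07 after and 3.80 before therapy, IL23R of -2.19 and 3.67, LTK of -2.0 and 2.58, and SLC4A10 of -1.13 and 2.56. Some genes that myeloid cells express, named here because their directions were opposite, did likewise: CTSL at -4.97 and 7.22, HK3 at -2.31 and 8.70, MYOF at -6.68 and 6.36, SORT1 at -4.85 and 6.02, CCR1 at -1.82 and 2.33, CXCL16 at -2.0 and 1.40, and FCGR2A at -1.40 and 1.05. The monocyte list as a whole did not turn. Of its 22 members past the filter at both times, 16 were lower in both pairs and 0 higher in both, with a median of -0.44 before therapy. The transporter ABCC3 had ratios of -6.21 and 1.28, the antiviral gene RSAD2 of -1.38 and 2.77, and the checkpoint kinase CHEK2 of -1.11 and 1.35. In the opposite sense, the proliferation gene MKI67 had ratios of 4.46 after and -1.01 before therapy, and MDGA1 of 4.87 and -2.87.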

How the results depend on the processing

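The count of genes at least 2-fold apart after therapy, 3004, was 1460 at a mean of at least 5 CPM (576 higher, 884 lower in the responder), 1789 at 5 CPM in either library (696 and 1093) and 14718 with no filter (6330 and 8388), and a fold of 4 gave 962 (200 and 762). Equal CD3, CD8 and CD2 genes gave 341 higher and 3946 lower. That scale moved the medians of monocyte markers to -3.0, interferon-stimulated genes to -0.561, replication genes to 0.115 and mitotic genes to 0.035. It turned those of inhibitory receptors to -0.034, the 7 scaling genes to -0.046, sort markers to -0.072, nucleotide synthesis to -0.086, costimulators to -0.174, receptor signalling to -0.182, cytokine receptors to -0.39, the proteasome to -0.439, and zinc finger genes to -0.223 (chromosome 19) and -0.314 (elsewhere). The scaling genes, which are also sort markers, lie near 0 on that scale by construction. Further medians above 0 under TMM also fell below it, among them integrins at -0.146, chemokines at -0.227 and effector factors at -0.515. Of 53 list medians, 28 stayed within their members' order-statistic interval under it, and 53 did with DESeq2 size factors, TMM over 2 libraries or library size. Of 194 named genes at least 2-fold apart, 48 were under 2-fold on the T cell scale and 0 changed direction. That 0 was fixed in advance, because a shift of 0.565 cannot turn a log2 ratio of 1 or more, so it is no check of direction. The cause of these shifts was not tested. No paired analysis was possible because each group held 1 library, and for the same reason no library could be left out. The counting interval left out 0 for all 3004 genes apart. At this depth a mean of at least 1 CPM and a fold of 2 all but fix that outcome, so it is no check of depth. That interval covers neither capture from 1 ng of RNA nor differences between patients.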

Other observations

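Receptors that sense microbes, chosen for description after their values were seen, were mostly lower in the responder after therapy. Of 11 toll-like receptor entries 10 passed the filter, and 6 were at least 2-fold lower and 1 higher, with a median log2 ratio of -1.63 after and 1.72 before therapy. TLR2, which senses lipoproteins, stood at 6.67 against 59.1 CPM, TLR8, a sensor of single-stranded RNA, at 0.651 against 7.91 CPM, and NLRP3, which starts an inflammasome, at 10.6 against 42.5 CPM. Genes of the complement system that myeloid cells make followed, with C1QA at 0.220 against 8.61 CPM and the receptor C5AR1 at 9.94 against 41.4 CPM. TLR3, a sensor of double-stranded RNA, went the other way at 9.77 against 3.49 CPM, and TLR9 stood at 33.0 against 26.6 CPM. Monocyte markers summed to 2135 against 10650 CPM in the same libraries, and their part in these values was not tested.

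GIMAP genes, a family of GTPases that lymphocytes use to survive, were higher in the responder, also chosen after their values were seen. All 7 past the filter were higher, 2 of them by 2-fold, with a median of 0.82, and 0.25 with the CD3, CD8 and CD2 genes set equal. GIMAP6 stood at 120 against 52.2 CPM and GIMAP5 at 261 against 131 CPM, while GIMAP8 stood at 42.1 against 38.5 CPM. ANXA6, a membrane-binding protein of lymphocytes, stood at 415 against 198 CPM, and P2RY8, a receptor that confines lymphocytes to follicles, at 481 against 214 CPM.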
